A study of Mus musculus with 6 samples.

Results

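Inhibitory interneurons are the locally projecting neurons of the brain that release gamma-aminobutyric acid (GABA), and 10 genes that mark them or their classes were read in RNA sequencing libraries of mouse brain. They are the GABA-synthesis genes Gad1 and Gad2, the class markers Pvalb, Sst, Vip and Lamp5, the neuropeptide genes Npy and Cck, the calcium-binding protein gene Calb2 and the extracellular matrix gene Reln. Each symbol matched 1 gene ID of the 36758 in the deposited table, and all 10 genes were protein-coding. All 10 reached 1 FPKM in 3 or more of the 6 libraries and so belonged to the 14206 genes tested. FPKM count sequenced fragments after scaling for gene length and library size, so levels can be set beside each other between genes.

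The TMAO group held 3 libraries of C57BL/6J mice that received 0.12% trimethylamine N-oxide (TMAO), a metabolite formed from choline and carnitine by gut bacteria and liver, once a day over 16 weeks. The vehicle group held 3 libraries of mice of the same strain that received water over the same 16 weeks. The series text gives an age of 6 months. The labels name brain as the tissue and microglia as the cell type, and the title of the series concerns microglia and stroke. The labels do not tell whether the libraries of a group are separate animals, and the library protocol speaks of pooled RNA without giving a number of animals. The p-values therefore cover the spread among libraries alone, which may be technical.

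GABA is made from glutamate by the glutamate decarboxylases GAD67, encoded by Gad1, and GAD65, encoded by Gad2. Cortical and hippocampal interneurons fall into classes that are recognised by the parvalbumin, somatostatin and vasoactive intestinal peptide genes and by Lamp5, and the classes differ in which part of their target cells they contact. Neuropeptides are cut from larger precursors, stored in dense-core granules and released at high activity to act on G protein-coupled receptors. Several of these genes are also transcribed outside interneurons. Cck and Lamp5 are found in cortical excitatory neurons, and Sst and Npy in neurons below the cortex.

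The labels name microglia, whereas neuronal RNA was abundant in all 6 libraries. Summed over 15 pan-neuronal markers, the level was 1291 to 1490 FPKM in TMAO libraries and 621 to 1393 FPKM in vehicle libraries, and over 10 microglia markers it was 112 to 126 FPKM in TMAO libraries and 106 to 267 FPKM in vehicle libraries. P2ry12, which defines microglia in the brain, had 3.87 to 6.29 FPKM in TMAO libraries and 2.47 to 3.99 FPKM in vehicle libraries. Of the 10 microglia markers, 6 were lower and 4 were higher in TMAO, and 8 were highest in vehicle replicate 1. Without that library 3 were lower and 7 were higher. The library that differed most was vehicle replicate 1. Its log2 values had correlations over genes of 0.804 to 0.896 with those of the other 5, which had 0.959 to 0.986 among themselves, as a description, since genes are not independent. The sum of 12 excitatory neuron markers was 933 to 1155 FPKM in TMAO libraries, against 99.4 FPKM in vehicle replicate 1 and 861 and 934 FPKM in vehicle replicates 2 and 3. That of border macrophage markers was 3.03 to 6.26 FPKM in TMAO libraries, against 70.8 FPKM in vehicle replicate 1 and 15.7 and 4.55 FPKM in vehicle replicates 2 and 3. The differences below are therefore given with and without vehicle replicate 1. In RNA of bulk brain, fewer cells of a type and less RNA per cell cannot be told apart.

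The 4 genes that encode neuropeptide precursors are shown by the 250 bases before their transcription start in RefSeq (GRCm38.p6), because cyclic AMP response elements, which the activity-dependent factor CREB binds, were first described in the somatostatin promoter. Sst lies at chr16:23890845-23891094 (minus strand), Npy at chr6:49822460-49822709 (plus strand), Vip at chr10:5638968-5639217 (plus strand) and Cck at chr9:121495695-121495944 (minus strand). All are written on the strand of the gene, and capitals mark the element TGACGTCA or its core TGACG on either strand, which reads CGTCA where it lies on the other strand.
Sst: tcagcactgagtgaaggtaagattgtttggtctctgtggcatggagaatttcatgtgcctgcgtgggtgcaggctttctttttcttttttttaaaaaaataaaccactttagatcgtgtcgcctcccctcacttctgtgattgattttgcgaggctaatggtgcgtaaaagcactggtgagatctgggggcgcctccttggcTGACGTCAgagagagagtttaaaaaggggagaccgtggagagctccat
Npy: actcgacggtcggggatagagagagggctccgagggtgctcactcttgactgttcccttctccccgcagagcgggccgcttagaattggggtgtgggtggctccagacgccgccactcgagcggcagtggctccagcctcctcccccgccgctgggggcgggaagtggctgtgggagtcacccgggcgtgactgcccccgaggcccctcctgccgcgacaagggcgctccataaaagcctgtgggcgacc
Vip: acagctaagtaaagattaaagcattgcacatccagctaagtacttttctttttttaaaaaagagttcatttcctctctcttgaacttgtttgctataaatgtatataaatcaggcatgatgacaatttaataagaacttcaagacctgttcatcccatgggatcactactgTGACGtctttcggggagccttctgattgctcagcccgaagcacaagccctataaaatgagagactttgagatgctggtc
Cck: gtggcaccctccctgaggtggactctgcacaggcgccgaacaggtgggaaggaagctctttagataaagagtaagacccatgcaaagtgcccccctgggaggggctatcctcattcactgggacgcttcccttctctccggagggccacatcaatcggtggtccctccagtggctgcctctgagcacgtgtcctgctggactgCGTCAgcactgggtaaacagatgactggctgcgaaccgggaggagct
In Sst the full element TGACGTCA lay 48 to 41 bases before the start, and it contains the core on both strands. The core alone lay 79 to 75 bases before the start in Vip and 47 to 43 bases before it in Cck, and Npy had no match in this window. The core was also found 33 to 29 bases before the start of Gad2. Windows were at hand for 9 of the 10 genes, 11 windows in all. The core was in the window of 4 of these 9 genes and in 17.8% of all 32851 promoters, and the full element was in that of 1 gene and in 1.55% of all promoters. These matches describe the letters alone, and the levels of the 4 genes are given below.

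No interneuron gene passed the test between TMAO and vehicle over all genes, and 0 of the 14206 genes did (0%). In limma, a linear model with a shared estimate of the spread, on log2(FPKM + 1), the adjusted p of the 10 genes ran from 0.404 to 0.967, and from 0.148 to 0.997 without vehicle replicate 1. At an unadjusted p under 0.05 there were 2 of the 10, Sst and Npy, both lower in TMAO, against 12.1% of all genes tested, 7.22% lower and 4.84% higher. The p of Npy, 0.0498 by limma, was 0.179 under quantile normalization and 0.0801 under median-ratio scaling. Without vehicle replicate 1 there were 3 of the 10, these and Lamp5, against 17.2% of all genes. The groups did not overlap in 3 of the 10 genes, against 29.5% of all genes tested. Of these, Sst and Npy were lower in every TMAO library than in any vehicle library, as were 17.5% of all genes, and Lamp5 was higher, as were 12.1%. The share of interneuron genes was thus near that of all genes. The same 3 genes, in the same directions, had groups without overlap when vehicle replicate 1 was left out, against 37.3% of all genes tested, 21.7% lower and 15.6% higher. The median log2 difference of the 10 genes was -0.16, and -0.035 without vehicle replicate 1, beside -0.027 and -0.022 over all genes tested.

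**Figure D1:**
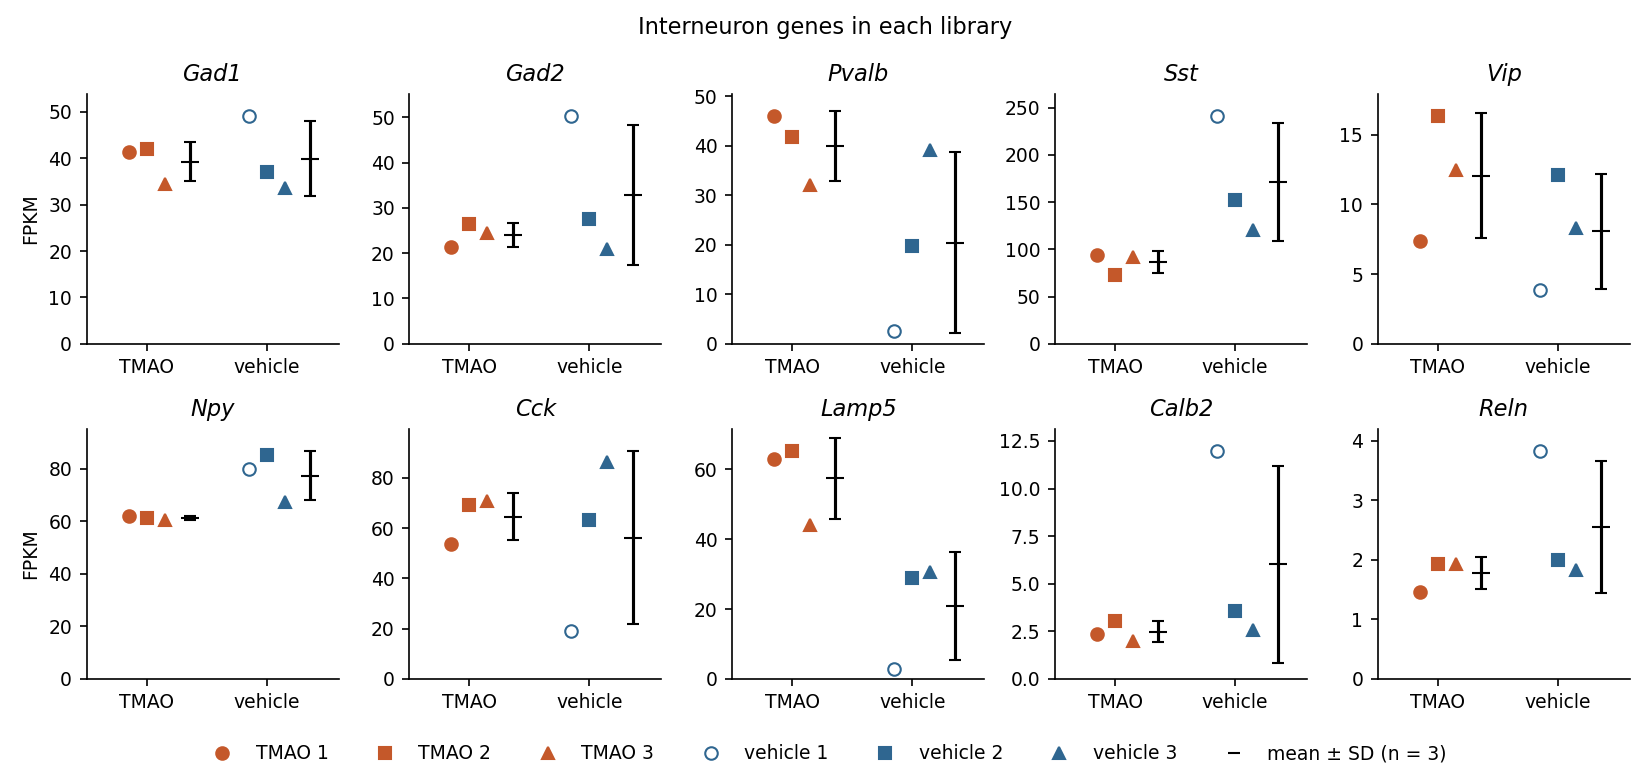
FPKM of the 10 interneuron genes, with TMAO libraries at the left and vehicle libraries at the right of each panel, vehicle replicate 1 as an open circle, and the mean ± SD (n = 3) beside each group. Lamp5 lies higher and Sst and Npy lie lower in all 3 TMAO libraries than in any vehicle library, and vehicle replicate 1 is the highest or the lowest library for 9 of the 10 genes.

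The GABA-synthesis genes did not separate the groups. Gad1 (chromosome 2, 70553072 to 70602014, plus strand, in the GRCm38 annotation, as are the positions that follow) had 41.3, 42.0 and 34.4 FPKM in TMAO replicates 1, 2 and 3, against 49.1, 37.1 and 33.7 FPKM in vehicle replicates 1, 2 and 3. The groups overlapped, and vehicle replicate 1 was the highest library. Gad1 averaged 39.2 ± 4.20 FPKM in TMAO and 39.9 ± 8.08 FPKM in vehicle (SD, n = 3 each), a log2 difference of -0.013 (SE 0.178) and of 0.14 without vehicle replicate 1. That difference was also above 0 under quantile normalization (0.069) and median-ratio scaling (0.030).

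Gad2 (chromosome 2, 22622205 to 22693874, plus strand) had 21.3, 26.5 and 24.5 FPKM in TMAO, against 50.2, 27.5 and 20.9 FPKM in vehicle. Here too the groups overlapped, and vehicle replicate 1 held 2.08 times the mean of the other 5 libraries. Its log2 difference was -0.34 (SE 0.316), and it was 0.0012 (SE 0.142) without vehicle replicate 1. In that library Gad2 was at 1.02 times the level of Gad1, and in the other 5 at 0.516 to 0.742 times.

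Pvalb encodes parvalbumin, a fast calcium buffer of basket and chandelier cells, which contact the cell body and axon of their targets. Pvalb (chromosome 15, 78191114 to 78206400, minus strand) had 46.0, 41.8 and 32.0 FPKM in TMAO, against 2.55, 19.7 and 39.1 FPKM in vehicle. TMAO libraries lay close together, while vehicle libraries spanned a 15.3-fold range that reached into the TMAO values. The means were 39.9 ± 7.15 FPKM in TMAO and 20.4 ± 18.3 FPKM in vehicle (SD, n = 3 each). The log2 difference of 1.50 (SE 0.857, adjusted p = 0.419 by limma) was 0.49 (SE 0.302) without vehicle replicate 1.

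Sst encodes somatostatin, an inhibitory peptide of Martinotti and other dendrite-targeting interneurons, and it had the highest level of the 10 genes in both groups. Sst (chromosome 16, 23889573 to 23890958, minus strand) had 94.4, 73.1 and 92.2 FPKM in TMAO, against 241, 153 and 121 FPKM in vehicle. Every TMAO library lay below every vehicle library, and vehicle replicate 1 was the highest. Sst averaged 86.5 ± 11.7 FPKM in TMAO and 171 ± 62.4 FPKM in vehicle (SD, n = 3 each), a ratio of 0.505. The log2 difference was -0.93 (SE 0.277, unadjusted p = 0.0151, adjusted p = 0.404 by limma), and it was -0.65 (SE 0.152, adjusted p = 0.175 by limma) without vehicle replicate 1. The GENCODE gene reaches past the RefSeq start used for the promoter above.

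Npy encodes neuropeptide Y, which is carried by a subset of the Sst cells and by neurogliaform cells. Npy (chromosome 6, 49822710 to 49829507, plus strand) had 61.9, 61.5 and 60.5 FPKM in TMAO, against 80.0, 85.2 and 67.2 FPKM in vehicle. It was the one gene of the 10 for which vehicle replicate 1 was neither the highest nor the lowest library, and all TMAO libraries lay below all vehicle libraries. Its TMAO libraries differed by 1.02-fold at most. The log2 difference was -0.33 (SE 0.135, adjusted p = 0.404 by limma), and -0.30 (SE 0.111) without vehicle replicate 1, so it was of about the same size in both fits.

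Vip encodes vasoactive intestinal peptide, which marks interneurons that mainly inhibit other interneurons. Vip (chromosome 10, 5639218 to 5647617, plus strand) had 7.40, 16.3 and 12.5 FPKM in TMAO, against 3.86, 12.1 and 8.29 FPKM in vehicle. The groups overlapped, and TMAO replicate 1 lay below vehicle replicates 2 and 3. Its log2 difference was 0.58 (SE 0.427), and 0.18 (SE 0.323) without vehicle replicate 1.

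Cck encodes cholecystokinin, a peptide of a further class of basket cells and of many excitatory neurons. Cck (chromosome 9, 121489824 to 121495694, minus strand) had 53.7, 69.1 and 70.8 FPKM in TMAO, against 18.9, 63.3 and 86.5 FPKM in vehicle. The lowest and the highest library were both vehicle libraries, so the TMAO values lay within the vehicle range. The log2 difference was 0.43 (SE 0.545), and it was -0.21 (SE 0.175) without vehicle replicate 1.

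Lamp5 encodes a lysosome-associated membrane protein of neurons and marks neurogliaform and related interneurons of the outer cortical layer. Lamp5 (chromosome 2, 136052239 to 136069917, plus strand) had 63.1, 65.2 and 44.2 FPKM in TMAO, against 2.97, 29.0 and 30.5 FPKM in vehicle. Each TMAO library lay above each vehicle library, and vehicle replicate 1 was far below all others. Lamp5 averaged 57.5 ± 11.6 FPKM in TMAO and 20.8 ± 15.5 FPKM in vehicle (SD, n = 3 each). The log2 difference of 1.89 (SE 0.813, adjusted p = 0.404 by limma) was 0.91 (SE 0.173, adjusted p = 0.148 by limma) without vehicle replicate 1. The mean in TMAO was 2.76 times that of vehicle, and 1.93 times that of vehicle replicates 2 and 3.

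Calb2 and Reln had the lowest mean levels of the 10 genes in both groups, although in vehicle replicate 1 both lay above Pvalb and Lamp5. Calb2 (chromosome 8, 110137502 to 110168210, minus strand) encodes calretinin, a calcium-binding protein of part of the Vip class, and had 2.35, 3.07 and 2.01 FPKM in TMAO, against 11.96, 3.54 and 2.55 FPKM in vehicle. Vehicle replicate 1 held 4.42 times the mean of the other 5 libraries. Vehicle replicate 3 lay within the TMAO range and vehicle replicate 2 above it. The log2 difference of Calb2 was -0.78 (SE 0.483), and -0.22 (SE 0.170) without vehicle replicate 1. Reln (chromosome 5, 21884454 to 22344702, minus strand) encodes reelin, a secreted protein that guides layer formation and in the adult cortex is made mainly by interneurons. Reln had 1.47, 1.93 and 1.94 FPKM in TMAO, against 3.82, 1.99 and 1.83 FPKM in vehicle. The groups overlapped, and the log2 difference was -0.31 (SE 0.231), or -0.072 (SE 0.126) without vehicle replicate 1.

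For each of the 10 genes alone, the exact two-sided permutation test of log2(FPKM + 1) over the 3 and 3 libraries gave p = 0.1 for Sst, Npy and Lamp5, the smallest it can give. For the other 7 the exact p was 0.2 to 1. In the authors' deposited table Sst had a p-value of 0.00249 and a q-value of 0.106, Lamp5 a p-value of 0.0274 and a q-value of 0.353, and Calb2 a p-value of 0.0287 and a q-value of 0.359. Lamp5 and Calb2 were marked as significant in the authors' deposited table, Lamp5 as up and Calb2 as down, and Sst was not. The share of all genes so marked was not counted, so it cannot be told whether these marks set the 10 genes apart. A p-value under 0.05 in the authors' deposited table was given to 3 of the 10 genes and to 10.2% of all 36758 genes.

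**Figure D2:**
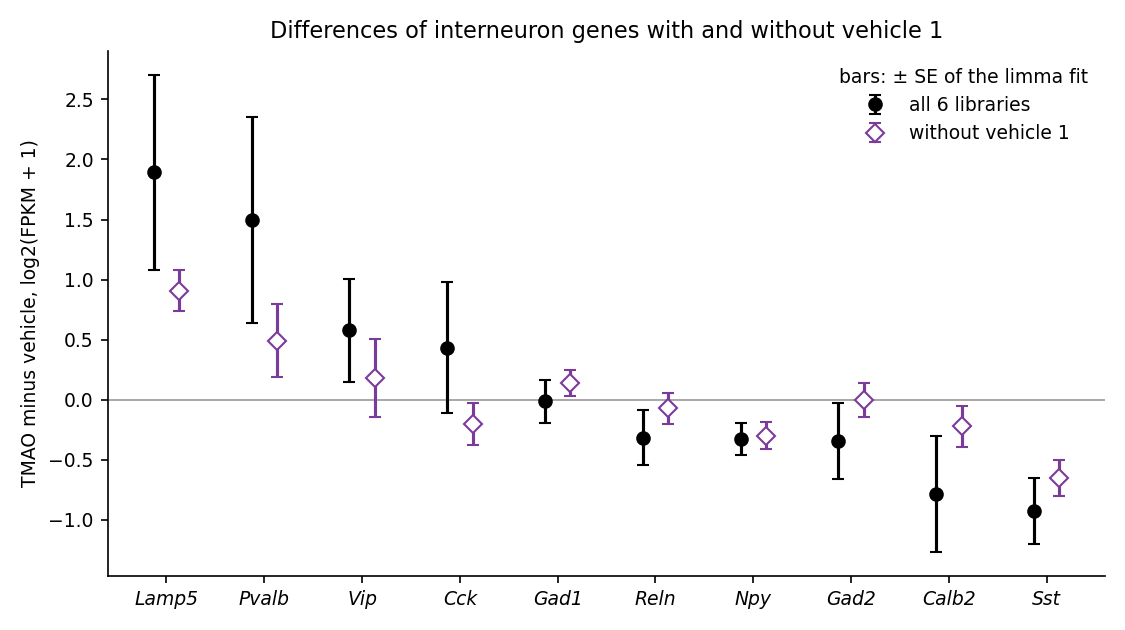
Difference between TMAO and vehicle in mean log2(FPKM + 1) for the 10 genes, ordered by size, with ± SE of the limma fit, for all 6 libraries (filled circles) and without vehicle replicate 1 (open diamonds). Without that library Pvalb comes to 0.49, Lamp5 to 0.91 and Calb2 to -0.22, Cck, Gad1 and Gad2 lie on the other side of 0 (Gad2 at 0.0012), and Npy stays at -0.30.

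Vehicle replicate 1 was the highest library for 5 of the 10 genes (Gad1, Gad2, Sst, Calb2 and Reln) and the lowest for 4 (Pvalb, Vip, Cck and Lamp5), and 77.7% of all genes tested had their highest or lowest value in it. Pvalb was 14.0 times and Lamp5 15.6 times as high in the mean of the other 5 libraries. For 8 of the 10 genes vehicle replicate 2 lay between vehicle replicates 1 and 3. Pvalb, Vip, Cck and Lamp5 were low in this library together with the excitatory markers, whose part in the result was not tested, while Gad1, Gad2, Sst, Calb2 and Reln were high in it. Without vehicle replicate 3, the groups did not overlap in 7 of the 10 genes, against 52.0% of all genes tested, which added Gad2, Calb2, Reln and Pvalb.

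Of the 9 pairs of neighbours in the order of levels, 4 overlapped in TMAO. In TMAO, Sst lay above Cck, and Gad1 above Gad2, Gad2 above Vip, Vip above Calb2 and Calb2 above Reln without overlap of the 3 libraries. Between Cck, Npy, Lamp5, Pvalb and Gad1, which followed each other in this order by mean, each gene overlapped with the next. In vehicle, Sst alone stood clear of its neighbour in the order, Npy, and the other 8 pairs of neighbours, from Npy and Cck down to Calb2 and Reln, overlapped. In vehicle replicates 2 and 3 alone 3 of 9 pairs overlapped, namely Npy and Cck, Lamp5 and Pvalb, and Pvalb and Gad2.

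The 10 genes were next read relative to other neuronal RNA of the same library, as log2(FPKM + 1) minus the mean of the 15 pan-neuronal markers, none of which is one of the 10. That mean was 6.08 to 6.20 in TMAO libraries and 5.14 in vehicle replicate 1, 6.04 in replicate 2 and 6.18 in replicate 3. On this scale Lamp5 was again higher in all 3 TMAO libraries (-0.30 ± 0.246 in TMAO and -1.83 ± 1.14 in vehicle), as were 2.39% of all genes tested. Sst (0.29 ± 0.225 in TMAO and 1.58 ± 1.07 in vehicle) and Npy (-0.19 ± 0.0457 in TMAO and 0.50 ± 0.653 in vehicle; SD, n = 3 each) were lower in all 3, as were 22.6% of all genes tested. The differences were 1.53, -1.29 and -0.69 for Lamp5, Sst and Npy, and 0.87, -0.69 and -0.34 without vehicle replicate 1. Each had an exact two-sided permutation p of 0.1, the smallest possible, and an adjusted p of 0.333 across the 10 by the Benjamini-Hochberg method.

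Relative to the mean of Gad1 and Gad2, which all GABA-releasing neurons share, Sst was steady among vehicle libraries. It lay at 1.64, 1.11 and 1.63 in TMAO, against 2.26, 2.22 and 2.14 in vehicle. All TMAO libraries thus lay below all vehicle libraries, with a difference of -0.75, and -0.72 without vehicle replicate 1. Lamp5 lay at 1.06, 0.95 and 0.59 in TMAO, against -3.67, -0.14 and 0.19 in vehicle, a difference of 2.07, or 0.84 without vehicle replicate 1.

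Calb2 was lower in every TMAO library on this scale, with a difference of -0.60, or -0.29 without vehicle replicate 1. Npy overlapped between the groups (difference -0.15), while without vehicle replicate 1 it did not (-0.37). Its TMAO libraries lay below vehicle replicates 2 and 3 but above vehicle replicate 1. Among all genes tested, 10.4% were lower and 3.55% were higher in every TMAO library on this scale. Sst, Lamp5 and Calb2 each reached the smallest possible p of the exact two-sided permutation test, 0.1, or 0.267 when adjusted over the 8 genes.

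**Figure D3:**
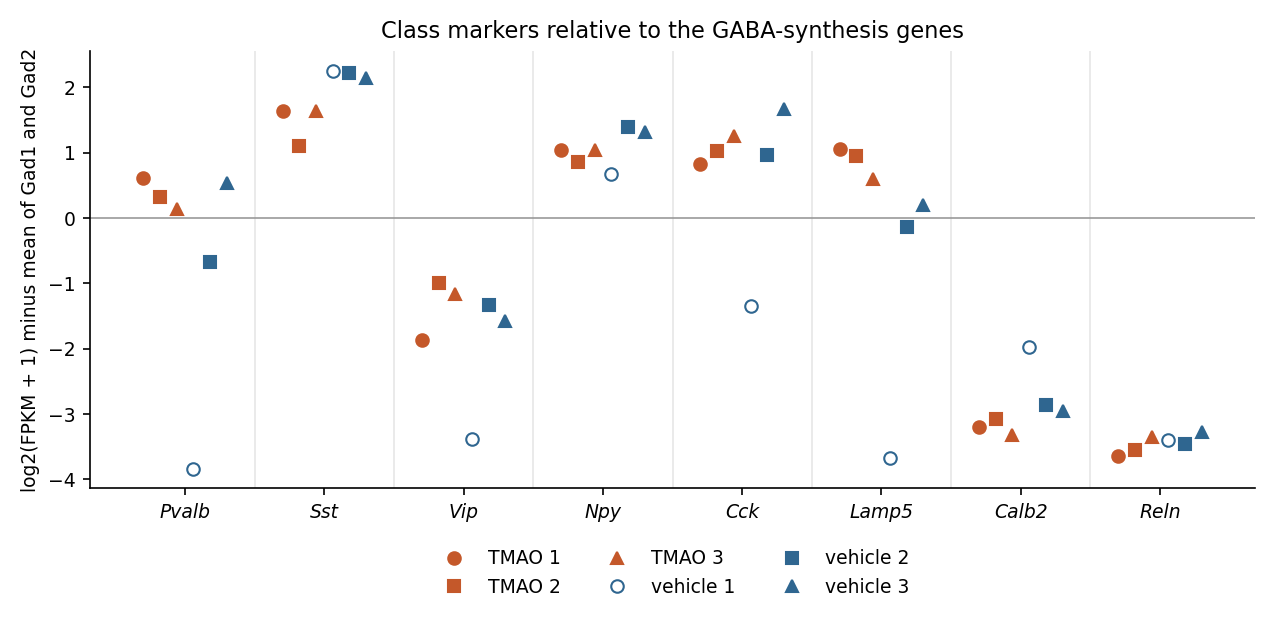
Level of 8 genes relative to the mean of Gad1 and Gad2 in the same library, in log2(FPKM + 1), with TMAO libraries left of vehicle libraries for each gene and vehicle replicate 1 as an open circle. Sst lies between 1.11 and 1.64 in TMAO, against 2.14 to 2.26 in vehicle, and vehicle replicate 1 lies at -3.83 for Pvalb and -3.67 for Lamp5.

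The rest of the GABA and neuropeptide system was described with 6 lists of 92 genes, of which 72 could be tested. None of the 72 passed the adjusted threshold by limma, 12 (16.7%) had an unadjusted p under 0.05, beside 12.1% of all genes tested, and the groups did not overlap in 29.2% of them, beside 29.5% of all genes tested. Their median log2 difference was -0.042, and 0.011 without vehicle replicate 1. Dlx5 and Sncg count in both shares of the 72 genes, and Dlx2 in that of groups without overlap. These genes passed the filter through the vehicle libraries alone, so their groups were bound to lie apart.

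Genes of GABA transport and breakdown, listed with the scaffold gene of inhibitory synapses Gphn (0.18), had 3 of 7 lower and 4 higher, with a median of 0.0082 (0.15 without vehicle replicate 1 and -0.22 without vehicle replicate 3). The groups did not overlap in Aldh5a1 alone, whose enzyme completes GABA breakdown, at 16.6, 18.8 and 17.5 FPKM in TMAO, against 15.9, 15.4 and 16.3 FPKM in vehicle (log2 difference 0.14, SE 0.101, and 0.15 without vehicle replicate 1). In a list of transcription factors of interneuron development that also held the class marker Adarb2, an RNA-editing family gene (-0.14), 11 of 14 tested genes had lower and 3 had higher values in TMAO, with a median of -0.22, and 8 of 14 were lower with a median of -0.033 without vehicle replicate 1. The 4 of 14 without overlap were all lower, beside 17.5% of all genes tested (21.7% without vehicle replicate 1). These were Prox1 (-0.68, and -0.40 without vehicle replicate 1), Npas1 (-0.42 and -0.27), Dlx5 (-0.42 and -0.26) and Dlx2 (-0.47 and -0.24). They act in interneuron precursors or mark their later classes. Dlx5 (0.674 to 0.847 FPKM) and Dlx2 (0.763 to 0.969 FPKM) were under 1 FPKM in all TMAO libraries. Both passed the filter through the vehicle libraries alone, so their groups were bound to lie apart with TMAO lower, and their place in this count is no result. Prox1 had 1.87, 1.52 and 1.46 FPKM in TMAO, against 5.11, 2.88 and 2.08 FPKM in vehicle, again highest in vehicle replicate 1.

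Among other interneuron markers 12 of 18 were lower and 6 were higher, with a median of -0.22 (-0.18 without vehicle replicate 1). Without overlap there were 5 higher and 2 lower genes of 18, beside 12.1% higher and 17.5% lower of all genes tested. Calb1, the calbindin gene, had 16.3, 17.7 and 16.6 FPKM in TMAO, against 11.0, 13.7 and 10.3 FPKM in vehicle, a log2 difference of 0.50 (SE 0.130) and 0.47 without vehicle replicate 1. Syt2, a calcium sensor for release at parvalbumin synapses, and Kcnc1, a potassium channel gene of fast-spiking cells, were higher as well (1.01 and 0.34, and 0.66 and 0.24 without vehicle replicate 1). Sncg, a marker of a class of Cck cells, had 0.430, 0.573 and 0.174 FPKM in TMAO, against 6.93, 1.51 and 1.29 FPKM in vehicle. Its log2 difference was -1.37 (-0.80 without vehicle replicate 1). Sncg passed the filter of 1 FPKM through the vehicle libraries alone, so its groups too were bound to lie apart with TMAO lower.

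Receptors for the peptides and for reelin, listed with the reelin signal adaptor Dab1 (0.28), had 8 of 11 tested genes higher and 3 lower, with a median of 0.38, and 6 of 11 higher with a median of 0.13 without vehicle replicate 1. Npy1r, a receptor for neuropeptide Y, had 7.14, 7.32 and 7.57 FPKM in TMAO, against 2.85, 3.77 and 4.34 FPKM in vehicle. Its groups stood clear of each other, with a log2 difference of 0.85 (SE 0.143, unadjusted p = 0.000842, adjusted p = 0.404 by limma), and of 0.72 without vehicle replicate 1. The cholecystokinin receptor gene Cckbr (0.97, and 0.47 without vehicle replicate 1) and the reelin receptor gene Vldlr (0.31 and 0.24) were higher without overlap, and the somatostatin receptor gene Sstr1 (-0.26 and -0.22) was lower. In this list 3 of 11 genes were higher and 1 was lower without overlap, beside 12.1% higher and 17.5% lower of all genes tested. The values for receptors of the same peptide differed in direction. Sstr3 (0.38, and -0.081 without vehicle replicate 1) and Sstr4 (0.45 and 0.13) had higher values over all libraries, with overlap of the groups. Npy2r, which was too low to be tested and was named after its values were seen, had 0.6002 to 0.788 FPKM in TMAO, against 0.886 to 5.11 FPKM in vehicle.

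Genes of prohormone processing and dense-core granules had 8 of 13 higher and 5 lower, with a median of 0.22 (0.053 without vehicle replicate 1). Cadps2, which primes dense-core granules for release, had 6.82, 6.36 and 8.91 FPKM in TMAO, against 2.55, 4.43 and 4.35 FPKM in vehicle (log2 difference 0.82, SE 0.212, and 0.62 without vehicle replicate 1). Its relative Cadps (0.52), the peptide-amidating enzyme gene Pam (0.22) and the convertase chaperone gene Scg5 (0.78) were also higher without overlap. Without vehicle replicate 1 their differences were 0.27, 0.23 and 0.30. Scg5 was apart by little, with 86.6 FPKM in TMAO replicate 3 against 85.4 FPKM in vehicle replicate 3. In this list 4 of 13 genes were higher and 0 lower without overlap, beside 12.1% higher and 17.5% lower of all genes tested. Of 18 other neuropeptide genes 9 could be tested, 5 higher and 4 lower, with a median of 0.068 (0.079 without vehicle replicate 1). The median was -0.15 without TMAO replicate 3 and 0.23 without TMAO replicate 1. Of these 9 the groups did not overlap in Nucb2 alone (-0.44, and -0.24 without vehicle replicate 1). Nucb2 was apart by little, with 5.85 FPKM in TMAO replicate 3 against 5.87 FPKM in vehicle replicate 3. Outside the rule for named genes, and chosen after their values were seen, Trh and Nts were too low to be tested and were lower in every TMAO library. Trh had 0.649 to 0.687 FPKM in TMAO, against 42.5, 1.47 and 0.923 FPKM in vehicle. Nts had 0.226 to 0.326 FPKM in TMAO, against 8.54, 0.684 and 0.581 FPKM in vehicle, so both were highest in vehicle replicate 1.

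**Figure D4:**
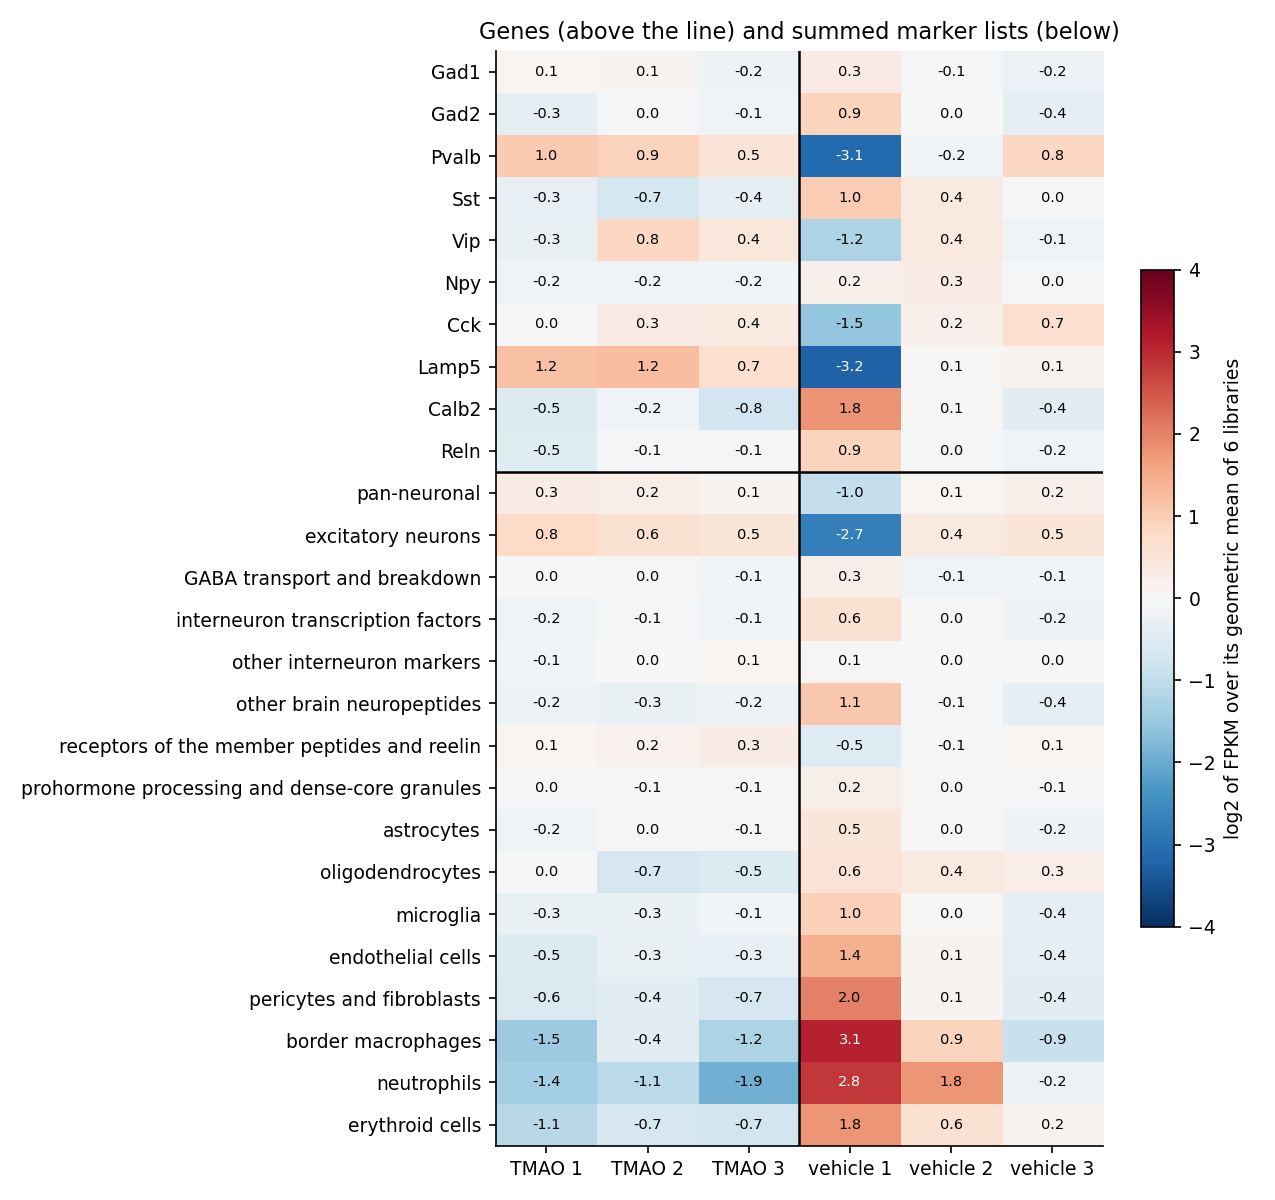
The 10 genes (above the line) and the summed FPKM of marker lists (below it) in each library, as log2 of the value over its geometric mean of the 6 libraries, with TMAO libraries left of vehicle libraries. Vehicle replicate 1 lies at -3.12 for Pvalb, -3.24 for Lamp5 and -2.74 for excitatory neuron markers, and at 1.02 for Sst, 1.81 for Calb2 and 3.08 for border macrophage markers.

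Some lists of markers of other cells are given here, and the sums of part of them, such as those of excitatory and striatal neurons, overlapped between the groups. All 12 excitatory neuron markers were higher in TMAO (median 1.02, and 8 of 12 with a median of 0.14 without vehicle replicate 1), and 13 of 15 pan-neuronal markers were (median 0.42, and 9 of 15 with a median of 0.028). All 10 oligodendrocyte markers were lower, summing to 439 to 699 FPKM in TMAO and 835 to 1052 FPKM in vehicle. Summed levels of erythroid markers were 80.7 to 110 FPKM in TMAO and 196 to 601 FPKM in vehicle, and those of neutrophil markers 4.27 to 7.74 FPKM in TMAO and 14.0 to 116 FPKM in vehicle, with Camp, Mpo and Slc4a1 at 0 in some libraries. Striatal projection neuron markers summed to 47.1 to 68.2 FPKM in TMAO and 24.7 to 65.3 FPKM in vehicle. Gabra6, which defines cerebellar granule cells, was listed at 0 in all 6 libraries. The 8 markers of cerebellar granule and Purkinje cells, Gabra6 among them, summed to 36.4 to 41.3 FPKM in TMAO. In vehicle they summed to 7.91 to 37.2 FPKM, lowest in vehicle replicate 1. The 4 of them that could be tested were all higher in TMAO. The part of these cells in the differences of the interneuron genes was not tested.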

How the data were processed

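RNA sequencing of 6 mouse brain libraries was read from a table of 36758 genes. Reads were trimmed with cutadapt 1.9 and the build is mm9, per the submitters' processing notes. For the aligner, the quantifier and the authors' test, nothing is given in the sources. The authors deposited FPKM per gene and library, and, per the file headers, a ratio (fold) of TMAO over vehicle, its log2, a p-value and a q-value. A further deposited table with the same genes and values was not used. Columns were matched through the library names in the labels, and 0 columns of samples were left unmatched. Read counts were not used here. In low values of single-transcript genes no ratio between libraries was shared by more than 2.09% of genes, so reads were not recovered, depth is unknown and precision rests on the spread between libraries.

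FPKM were transformed to log2(FPKM + 1), which understates changes of low genes. The 14206 genes that reached 1 FPKM in 3 or more of 6 libraries entered a limma 3.58.1 fit (R 4.3.3, empirical Bayes with trend and robust options). P-values were two-sided, adjusted by the Benjamini-Hochberg method and called under 0.05. The fit was also run on simulated data in which no library stood apart, so that run does not cover the position of vehicle replicate 1. Single values were compared by exact permutation tests, whose p cannot go under 0.1. Of the gene IDs, 99.6% are in GENCODE M21 (GRCm38), which gave the positions. The 10 genes, the lists and the tests were chosen with earlier results of these data known. Named genes were the 10, up to 4 per related list with the smallest p and groups without overlap, and the first gene or summed level of cell type lists. Alternatives covered the pseudocount, the filter, scaling, the variance model, a replicate block, the threshold and each library left out. Figures were drawn with matplotlib 3.10.9.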

Additional observations from a re-analysis of the deposited data

How the results depend on the processing

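In none of the 15 alternatives to the limma fit did an interneuron gene, a gene of the related lists or any other gene pass the adjusted threshold, including a threshold of 0.1. Pvalb, Sst, Vip, Npy, Lamp5, Calb2 and Reln kept the sign of their log2 difference in the 10 alternatives that can change it (the other 5 leave it as it is), with ranges of 0.48 to 2.24, -1.15 to -0.65, 0.18 to 0.90, -0.42 to -0.17, 0.91 to 2.40, -1.15 to -0.22 and -0.46 to -0.072. The unadjusted p of Npy (0.0498) was also above 0.05 with a replicate block (0.113), with array weights (0.165), and without TMAO replicate 1, 2 or 3 or vehicle replicate 2 (0.108 to 0.152), and that of Sst without TMAO replicate 2 (0.0558). The unadjusted limma p of other genes came under 0.05. This held for Vip with a replicate block (0.0116) and for Lamp5 without vehicle replicate 1 (0.0017) or 2 (0.0435). Without vehicle replicate 3 it held for Pvalb (0.0265), Lamp5 (0.0335) and Calb2 (0.0495). In that fit 3365 of all genes tested were under 0.05, against 1712 with all 6 libraries. The sign changed for Gad1 under quantile normalization (0.069), median-ratio scaling (0.030), array weights (0.12), without TMAO replicate 3 (0.076) and without vehicle replicate 1 (0.14), and leaving out 1 library each gave -0.12 to 0.14. It changed for Gad2 and Cck under array weights (0.052 and -0.065) and without vehicle replicate 1 (0.0012 and -0.21), and leaving out 1 library each gave -0.61 to 0.0012 for Gad2 and -0.21 to 0.86 for Cck.

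Relative to pan-neuronal markers, it changed for Gad1 (0.099) and Cck (-0.25) without vehicle replicate 1, for Vip without TMAO replicate 2 (-0.011) and for Cck without TMAO replicate 3 (-0.040). Over the single libraries left out, Gad1 ran from -0.69 to 0.099, Vip from -0.011 to 0.52 and Cck from -0.25 to 0.30 on this scale. The genes without overlap numbered 3, and 3 to 7 when 1 library was left out, with 7 without vehicle replicate 3. The share of all genes without overlap was not counted on this scale with a library left out. For levels not set relative to these markers it was 29.5% with all libraries and 52% without vehicle replicate 3. The scales differ, so it cannot be told from these shares whether the 7 set the interneuron genes apart. Relative to Gad1 and Gad2, Cck changed sign without vehicle replicate 1 (-0.28) and ran up to 1.23 (without vehicle replicate 3). The causes were not tested. Array weights and the fit without robust estimation were added after the data were seen.

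Same-numbered replicates did not deviate together (correlations across genes of -0.22, -0.064 and -0.015). With 3 libraries per group, of which vehicle replicate 1 stood apart, these correlations cannot exclude that the numbers pair the libraries. With a replicate block 1259 genes had an unadjusted p under 0.05, against 1712 without it, and 0 passed the adjusted threshold.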

Other observations

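Ratios of class markers within a library were formed after the values were seen, 6 in all, and they do not depend on the scaling between libraries. Pvalb over Sst was 0.487, 0.572 and 0.347 in TMAO replicates 1, 2 and 3, against 0.0106, 0.129 and 0.324 in vehicle replicates 1, 2 and 3, so every TMAO library lay higher, vehicle replicate 3 by little. Lamp5 over Sst was 0.668, 0.892 and 0.479 in TMAO, against 0.0123, 0.190 and 0.253 in vehicle. Npy over Sst was 0.656, 0.842 and 0.656 in TMAO, against 0.332, 0.558 and 0.558 in vehicle, so the ratio was higher in every TMAO library, with Sst above Npy in all 6. These 3 ratios had an exact two-sided permutation p of 0.1, the smallest possible, and 0.2 when adjusted over the 6. All 3 have Sst as the divisor, which was itself lower in every TMAO library, so they are not separate results. The groups overlapped for Vip over Sst, Cck over Sst and Gad2 over Gad1.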
